A study of Mus musculus with 14 samples.

Results

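The proteasome genes of the mouse oocyte were taken as all genes whose symbol begins with Psma to Psmg followed by a number, which gave 49 genes of the 20337 with a symbol in the count data. The transcript with the highest mean count stood for each gene. Full-grown, germinal vesicle-intact oocytes of 5 genotypes were sequenced in 14 libraries, each of 20 oocytes from 3 mice. The females were 4 to 6 weeks old, had a mixed and mostly C57BL6 background, and had received 5 IU of eCG 48 h earlier, and cumulus cells were removed by pipetting. The *Ago2* series held 3 control libraries (Ago2 fl/fl, floxed alleles without Cre), 3 Ago2 ADH libraries and 2 Ago2 null libraries. Ago2 ADH oocytes carried 1 floxed and 1 catalytically inactive allele with *Zp3*-Cre, which acts in growing oocytes, so that only the inactive allele remained. Ago2 null oocytes carried 2 floxed alleles with the same Cre. The *Dicer* series held 3 wild-type (WT) libraries and 3 libraries of oocytes that lack *Dicer* (KO).

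The proteasome degrades proteins marked with ubiquitin. Its 20S core is a barrel of alpha and beta rings with the proteolytic sites inside, the 19S cap recognizes, unfolds and feeds in substrates, and dedicated chaperones assemble both. Other caps and an inhibitor bind the ends of the core. In oocytes, regulated proteolysis drives the resumption and completion of meiosis, and the maternal store of transcripts is set during growth.

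Of the 49 members, 8 are alpha subunits, 4 are structural and 3 catalytic beta subunits, 4 are inducible or thymic beta subunits, and 16 belong to the 19S cap (5 ATPases, 3 other base subunits and 8 lid subunits). Another 7 are assembly chaperones and 5 are activators or the inhibitor. The remaining 2, *Psmc3ip* and *Psme3ip1*, share only the form of the symbol. *Psmc3ip* encodes the meiotic recombination protein HOP2 and *Psme3ip1* encodes a protein that binds the PSME3 activator. The ATPase gene *Psmc1* and the activator gene *Psme2b* were not analysed here.

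The libraries held 29380403 to 58285057 counts on transcripts, so that 3 counts correspond to 0.0515 to 0.102 CPM (counts scaled to library size). In 13 of the 14 libraries the most similar library by log2 CPM was one of the same group. *Ago2* was lower in Ago2 ADH (log2 fold change -0.87) and in Ago2 null oocytes (-1.95). The *Dicer1* transcript, in contrast, was higher in Dicer KO oocytes (1.26), so its total level did not check that label. The summed level of the 10 oocyte markers was 11000 to 17600 CPM. Of the 12 granulosa and cumulus cell markers 3 (*Amh*, *Foxl2* and *Ptx3*) had at most 12 counts in every library, and the summed level of the 12, mostly from *Cyp19a1* and *Nr5a2*, was 78.0 to 84.8 CPM in Ago2 fl/fl, 63.8 to 70.8 CPM in Ago2 ADH, 58.6 to 61.6 CPM in Ago2 null, 97.0 to 105 CPM in Dicer WT and 82.6 to 86.2 CPM in Dicer KO. The theca and stroma markers summed to at most 1.45 CPM, and all 5 blood and immune markers found had at most 12 counts in every library. Reads with several alignments, which are tallied apart from the transcripts, amounted to 0.557 to 0.597 per transcript count in Ago2 fl/fl, 1.579 to 1.661 in Ago2 ADH, 1.566 to 1.656 in Ago2 null, 0.388 to 0.536 in Dicer WT and 0.939 to 1.191 in Dicer KO. The part of the cumulus markers and of these reads in the results was not tested.

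Control oocytes held the transcripts of nearly the whole constitutive 26S proteasome and almost none of its inducible, thymic and germline core subunits. The levels below are normalized CPM per kb of transcript, and each is the mean of the 3 control libraries. In Ago2 fl/fl oocytes the 14 constitutive core subunits ranged from 23.3 (*Psmb5*) to 194 CPM per kb (*Psmb2*), with a median of 98.5. In Dicer WT oocytes they ranged from 19.9 (*Psmb3*) to 128 CPM per kb (*Psma7*), with a median of 81.5. Most of the 16 cap subunits lay lower, at 11.6 to 70.1 CPM per kb in Ago2 fl/fl and 8.39 to 60.8 in Dicer WT apart from *Psmd13*, and were led by *Psmd8* (70.1 ± 4.05, SD, n = 3) in Ago2 fl/fl and by *Psmd12* (60.8 ± 3.63, SD, n = 3) in Dicer WT oocytes. Taking coding length in place of transcript length widened the ratio between the highest and the lowest core subunit. It went from 8.33 to 22.4 in Ago2 fl/fl and from 6.43 to 21.2 in Dicer WT. The order within the core thus depends on the length used. Reads with several alignments are missing from these levels, although the whole transcript length was used. Of the 36-base stretches of *Psmb5* and *Psmb3*, 70.3% and 64.3% also occur in other transcripts, and none of those of *Psmb2* and *Psma7*. *Psma5*, with 63.1% shared, was at 175 CPM in Ago2 fl/fl and 106 CPM in Dicer WT oocytes, before division by length. The part of shared sequence in this order was not tested.

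The members at or near 0 were those known from immune cells, thymus and testis. *Psma8*, the alpha subunit of the spermatocyte proteasome, had 0 to 4 counts per library. The interferon-inducible catalytic subunits *Psmb8* and *Psmb9* had 0 to 5 and 0 to 18 counts, the 18 in a single Ago2 ADH library. These 3 genes were too low to be tested in any comparison. *Psmb10*, the third inducible catalytic subunit, had 7 to 91 counts, and *Psmb11*, the subunit of the thymus, had 60 to 112. Apart from these core subunits, *Psmd13* of the lid (24 to 142 counts), the interferon-inducible activator subunit *Psme1* (5 to 71) and the chaperone *Psmg2* (18 to 88) were also low. At 0.286 CPM per kb in Ago2 fl/fl and 0.481 in Dicer WT oocytes, *Psmd13* stood far below the next lid subunits, *Psmd7* at 11.6 in Ago2 fl/fl and *Psmd3* at 8.39 in Dicer WT. Reads with several alignments and any reads ambiguous between transcripts are missing from these counts. Whether the low counts of *Psmd13*, *Psme1* and *Psmg2* reflect low transcript levels was not tested.

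**Figure D1:**
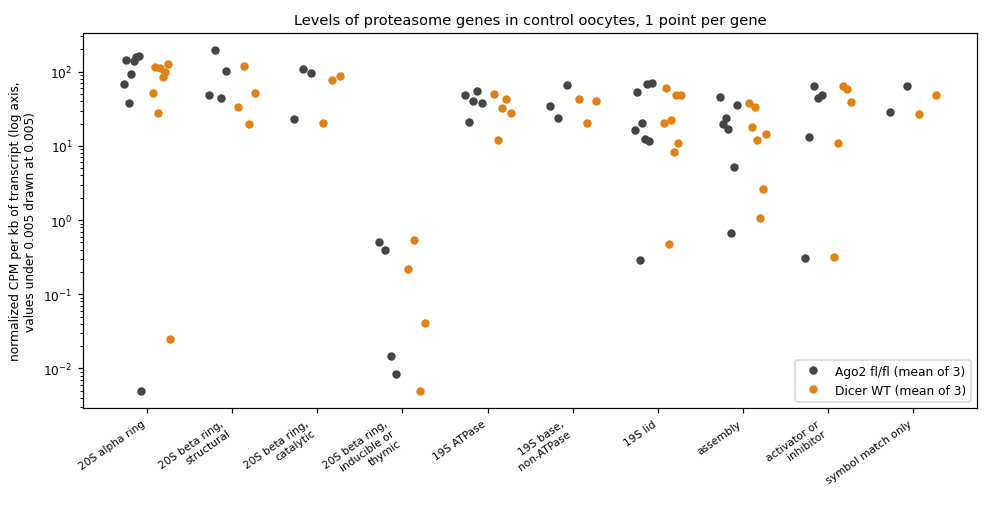
Normalized CPM per kb of transcript (log axis) of each of the 49 proteasome genes, by role, in Ago2 fl/fl and Dicer WT oocytes (means of 3 libraries each). Constitutive core and cap subunits other than *Psmd13* sit between 8.39 and 194, whereas the inducible and thymic beta subunits, *Psma8*, *Psmd13* and *Psme1* sit below 1 (values under 0.005 are drawn at 0.005).

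The first question was whether proteasome transcripts change when AGO2 cannot cleave its targets. In Ago2 ADH compared with Ago2 fl/fl oocytes, 7 of the 46 members tested were higher and 1 was lower at an FDR of 1%. Of all genes tested in this comparison, 21% were called higher and 19.8% lower, so the share of members called higher (15.2%) was somewhat under the background and the share called lower (2.17%) far under it. *Psmb5*, *Psmb6*, *Psmb3*, *Psmd9*, *Psmd13*, *Psme2* and *Psmf1* rose and *Psme3* fell. The median log2 fold change of the members was 0.07 (0.012 over all genes tested), and 37 of the 46 members differed by less than 1.25-fold. Only 5 members (10.9%) differed by more than 1.5-fold, against 31.8% of all genes tested. The libraries give relative levels only, so less RNA per oocyte and a smaller share of a transcript cannot be told apart. Because most members are abundant, the same was computed, as a choice made after seeing the values, for genes whose normalized counts averaged 1000 or more. There, 1 of 37 members (2.7%) and 14.3% of all genes differed by more than 1.5-fold, 13.5% of members and 21.9% of genes were called higher, and 2.7% of members and 28.6% of genes were called lower.

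The catalytic subunit *Psmb5*, which carries the chymotrypsin-like site, showed the clearest change. It measured 23.0, 20.4 and 19.4 CPM in the Ago2 fl/fl libraries and 46.2, 41.7 and 39.4 CPM in the Ago2 ADH libraries. The lowest Ago2 ADH library lay well above the highest control. The gene rose 2.1-fold (log2 fold change 1.07 ± 0.083, SE, adjusted p = 3.61e-09 by edgeR). Of the 36-base stretches of its transcript, 70.3% also occur in other annotated transcripts, most of them in *Gm3375*. Part of its reads may therefore have several alignments and be missing from its count. The stretches are shorter than a read pair, and reads with several alignments were not counted gene by gene.

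The other catalytic subunits behaved differently from each other. *Psmb6*, the caspase-like subunit, measured 88.0, 85.5 and 88.6 CPM in Ago2 fl/fl and 109, 111 and 101 CPM in Ago2 ADH oocytes, without overlap (log2 fold change 0.34 ± 0.054, adjusted p = 3.52e-05, edgeR). *Psmb7*, the trypsin-like subunit, measured 113, 108 and 110 CPM against 112, 114 and 102 CPM. Its groups overlapped and it was not called (0.04, 95% interval -0.07 to 0.14). Of the structural beta subunits, *Psmb3* rose (0.33 ± 0.071, adjusted p = 0.000837, edgeR), with 64.3% of its 36-base stretches shared with other transcripts, and the other 3 were not called (0.07 to 0.18). None of the 7 alpha subunits tested was called by edgeR (-0.03 to 0.16), with 1 of them, *Psma5*, at an unadjusted p under 0.05.

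Of the 16 cap subunits 1 was called. None of the 5 ATPases, which unfold substrates, was called (log2 fold changes -0.05 to 0.17), nor were the 3 other base subunits (-0.05 to 0.08), among them the ubiquitin receptor *Psmd4* (0.05, 95% interval -0.06 to 0.16). Of the lid only *Psmd13* was called. It had 38, 24 and 34 counts in Ago2 fl/fl and 142, 72 and 79 counts in Ago2 ADH libraries (1.80 ± 0.33, adjusted p = 0.000172, edgeR). This gene lies outside the rule for named genes because its mean is under 100 normalized counts, and it was picked after its values were seen. It shares 17.1% of its 36-base stretches with other transcripts, mostly of the neighbouring gene *Sirt3*. *Psmd14*, the deubiquitinating enzyme of the lid, measured 32.4, 34.7 and 28.4 CPM in Ago2 fl/fl and 34.3, 33.9 and 35.7 CPM in Ago2 ADH oocytes and was not called (0.17, 95% interval 0.01 to 0.32).

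Among assembly factors, *Psmd9*, a chaperone of the cap base, rose. Its level was 63.7, 59.2 and 60.5 CPM in Ago2 fl/fl and 72.0, 75.4 and 82.2 CPM in Ago2 ADH oocytes (0.37 ± 0.063, adjusted p = 7.24e-05, edgeR). Every Ago2 ADH library was above every control. The other 6 chaperones were not called, although *Psmg2* (52, 53 and 19 against 70, 86 and 74 counts) had a log2 fold change of 1.12 with an adjusted p of 0.0104 by edgeR. *Psmg1*, with which PSMG2 pairs to build the alpha ring, stayed at -0.05 (95% interval -0.23 to 0.13).

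The regulators that bind the ends of the core moved in both directions. *Psme2*, a subunit of the interferon-inducible activator, measured 12.4, 12.4 and 13.6 CPM in Ago2 fl/fl and 19.9, 20.9 and 19.5 CPM in Ago2 ADH oocytes. The groups were well separated (0.70 ± 0.091, adjusted p = 3.52e-06, edgeR), but 64.4% of the transcript's 36-base stretches also occur in the near-identical *Psme2b*. Its partner *Psme1* was detected at 7, 17 and 32 counts against 26, 71 and 38 and was not called (adjusted p = 0.0284, edgeR). *Psme3*, the nuclear activator, fell from 172, 169 and 172 CPM to 148, 149 and 145 CPM (-0.17 ± 0.047, adjusted p = 0.00576, edgeR). *Psmf1*, the inhibitor PI31, rose from 181, 183 and 188 CPM to 201, 193 and 213 CPM (0.19 ± 0.052, adjusted p = 0.00566, edgeR). Both of these small changes separated all libraries, but each call was lost in 5 of the 6 fits that left out 1 library, all but that without the second Ago2 ADH library (adjusted p of 0.0104 to 0.0201 for *Psme3* and 0.0106 to 0.0381 for *Psmf1*, edgeR). *Psme4*, which forms the PA200 cap and is among the most abundant members by count, measured 294, 294 and 288 CPM against 291, 303 and 315 CPM and was not called (0.10, 95% interval 0.01 to 0.19).

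*Psmc3ip*, which matches by symbol only, measured 37.0 ± 1.54 CPM (SD, n = 3) in Ago2 fl/fl and 25.9, 33.2 and 30.5 CPM in Ago2 ADH oocytes. All Ago2 ADH libraries were lower, but the adjusted p of 0.0132 missed the 1% threshold in edgeR (-0.26 ± 0.083). Without the second Ago2 ADH library it was called, at -0.34 with an adjusted p of 0.00235 (edgeR). It overlaps *Mlx*, which holds 27.9% of its 36-base stretches, and counting was done without strand.

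**Figure D2:**
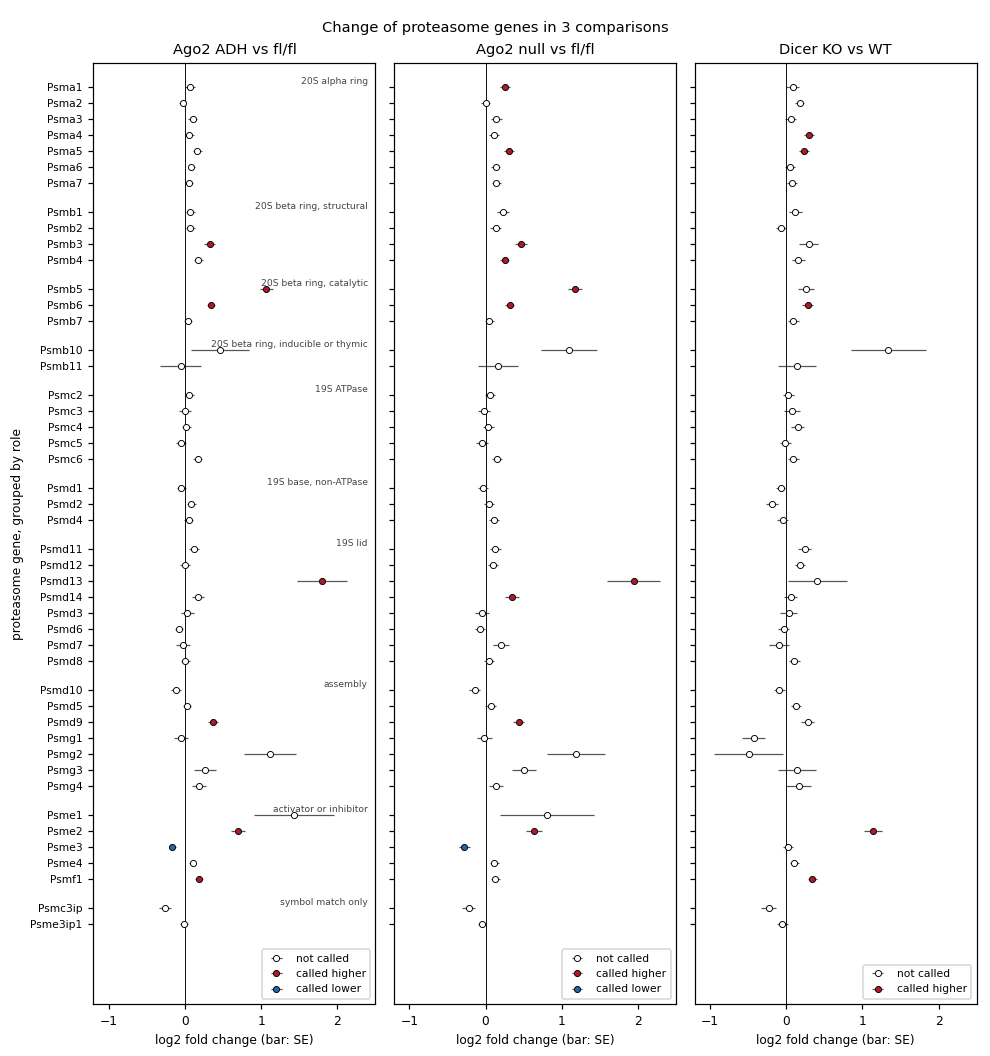
Log2 fold changes (points) with SE (bars) of the proteasome genes tested in Ago2 ADH and Ago2 null against Ago2 fl/fl oocytes and in Dicer KO against Dicer WT oocytes, grouped by role. Filled points passed an FDR of 1%. The 5 ATPases are open in all 3 panels, and *Psmb5* stands out in the 2 *Ago2* panels and *Psme2* in the Dicer KO panel.

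The same control libraries served the comparison with Ago2 null oocytes, so its values are not independent of those above. Here 10 of 46 members were higher (21.7%) and 1 was lower (2.17%), with a background of 18.6% higher and 18.7% lower. *Psmb5* was at 44.4 and 48.2 CPM in the 2 null libraries (1.18 ± 0.087, adjusted p = 1.05e-08), and *Psme2* was at 19.4 CPM in both (0.63 ± 0.10, adjusted p = 7.33e-05, edgeR). *Psmb3*, *Psmb6*, *Psmd9* and *Psmd13* were called higher in this comparison as in the former. *Psma1*, *Psma5*, *Psmb4* and *Psmd14* were called here and not there, at log2 fold changes of 0.25 to 0.35. None of these 4 was called in the direct comparison of Ago2 ADH with Ago2 null oocytes. The call of *Psma1* was lost in 4 of the 5 fits that left out 1 library, all but that without the first Ago2 fl/fl library (adjusted p of 0.0136 to 0.0296), that of *Psmd14* without the third Ago2 fl/fl or the first Ago2 null library (0.0217 and 0.0322) and that of *Psmb4* without the second Ago2 null library (0.0162, edgeR). *Psme3* was at 151 and 125 CPM (-0.28 ± 0.073, adjusted p = 0.00448, edgeR). Without the second null library its log2 fold change was -0.15 (adjusted p = 0.0909, edgeR), and the call was also lost without the second or the third Ago2 fl/fl library (0.0182 and 0.0202).

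The comparison of Ago2 ADH with Ago2 null oocytes asks whether the inactive protein differs from no protein. No member was called in edgeR, 0 higher with a background of 0.0705% and 0 lower with a background of 0.0494%. At an unadjusted p under 0.05, 0 members were higher and 5 were lower (*Psma1*, *Psma5*, *Psmb1*, *Psmd7* and *Psmd14*, log2 fold changes -0.24 to -0.16), and DESeq2 also called 0. The share of all genes at this unadjusted threshold is not given here, so these 5 have no background. The median log2 fold change of the 46 members was -0.06 (-0.007 over all genes tested), and 44 of them differed by less than 1.25-fold. For *Psmb5* the difference was within the spread of the libraries, since 46.2, 41.7 and 39.4 CPM overlap with 44.4 and 48.2 CPM. The sample labels give no lane or other batch, and the part of such a batch in this comparison was not tested.

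The *Dicer* series asked whether the loss of the enzyme that makes both siRNAs and miRNAs changes the same genes. In Dicer KO oocytes 5 of 45 members were higher (11.1%, background 16.9%) and 0 were lower (background 17.6%), by edgeR at an FDR of 1%. At an unadjusted p under 0.05, 3 were lower (the share of all genes is not given here), and DESeq2 called 0 lower. Of the 45 members, 39 differed by less than 1.25-fold and 2 (4.44%) by more than 1.5-fold, against 33.7% of all genes tested. The 5 were the alpha subunits *Psma4* and *Psma5*, the catalytic subunit *Psmb6*, the activator *Psme2* and the inhibitor *Psmf1*.

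Among the called members *Psme2* changed most. It was at 9.91, 11.0 and 10.3 CPM in Dicer WT and 21.3, 25.7 and 21.7 CPM in Dicer KO oocytes, with all knockout libraries well above the controls (2.2-fold, log2 fold change 1.13 ± 0.12, adjusted p = 2.74e-07, edgeR). *Psmf1* measured 150, 143 and 152 CPM in Dicer WT against 183, 190 and 193 CPM in Dicer KO (0.34 ± 0.059, adjusted p = 0.000103, edgeR), and none of its 36-base stretches occurs in another transcript. *Psma4* measured 135, 122 and 129 CPM against 168, 156 and 153 CPM (0.30 ± 0.065, adjusted p = 0.00089, edgeR), and 41.8% of its stretches are shared. *Psmb6* measured 61.7, 62.6 and 61.1 CPM against 79.6, 73.5 and 73.1 CPM (0.28 ± 0.070, adjusted p = 0.00267, edgeR). None of these 4 genes overlapped between the genotypes, and neither did some members that were not called, among them *Psma2* and *Psmd12*. The share of all genes without overlap is not given here. The call of *Psmb6* was lost without the first Dicer KO library (0.24, adjusted p = 0.0158), and that of *Psma5* (0.23 ± 0.065, adjusted p = 0.0067, edgeR) in 5 of 6 fits that left out 1 library, all but that without the third Dicer KO library (0.0104 to 0.0428).

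*Psmb5*, in contrast, was at 16.6, 19.9 and 18.0 CPM in Dicer WT and 20.1, 22.1 and 23.2 CPM in Dicer KO oocytes. The groups did not overlap, but the change of 0.26 ± 0.11 had an adjusted p of 0.0614 (edgeR). *Psme3* stayed at 162, 179 and 176 against 188, 173 and 165 CPM (0.02, 95% interval -0.11 to 0.15). *Psmg1*, the chaperone of the alpha ring, was at 12.4, 14.7 and 10.3 CPM against 8.91, 10.1 and 8.96 CPM, all knockout libraries being lower, with an adjusted p of 0.0275 (-0.42 ± 0.15, edgeR). It was called without the third Dicer WT library (-0.55, adjusted p = 0.0099, edgeR). *Psmc3ip* (-0.23, adjusted p = 0.0693) was called without the first Dicer WT library (-0.34, adjusted p = 0.00838, edgeR). *Psmb10* had 7, 15 and 13 counts in Dicer WT and 22, 23 and 24 in Dicer KO and did not reach the threshold (1.34 ± 0.49, adjusted p = 0.0316, edgeR). *Psma7*, the alpha subunit that *Psma8* replaces in the testis, measured 143, 151 and 154 CPM in Ago2 fl/fl, 145, 163 and 143 CPM in Ago2 ADH, 164 and 158 CPM in Ago2 null, 120, 120 and 112 CPM in Dicer WT and 128, 125 and 117 CPM in Dicer KO oocytes and was called in no comparison.

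**Figure D3:**
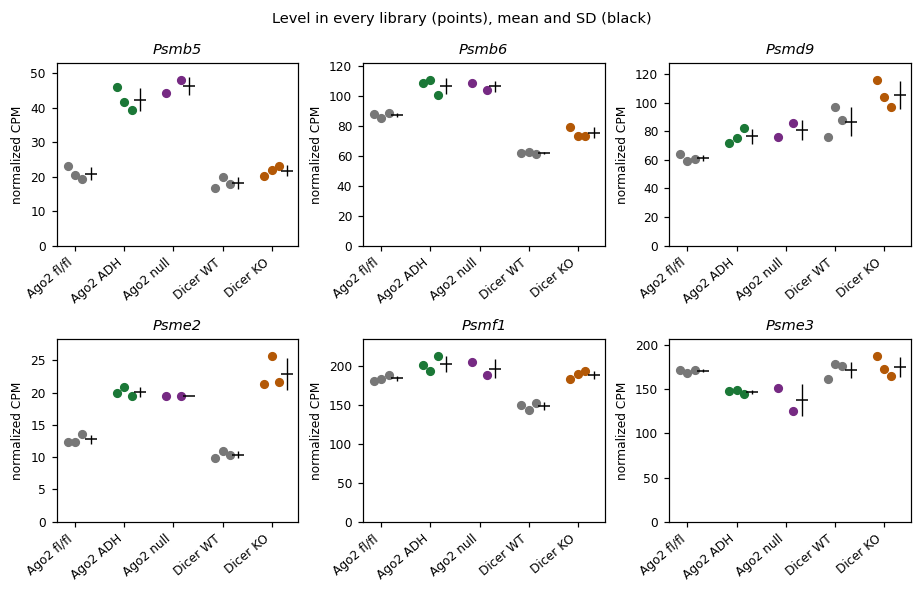
Normalized CPM of 6 proteasome genes in each of the 14 libraries (coloured points), with the group mean and SD in black and axes from 0. *Psmb5* is near 20 CPM in both controls and in Dicer KO and near 40 to 48 CPM in Ago2 ADH and Ago2 null oocytes, whereas *Psme2* is raised in all 3 mutants.

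The 2 series differed already in their controls. Of 41 members with a mean count of at least 100, 68.3% were higher in all Ago2 fl/fl than in all Dicer WT libraries. Another 14.6% were lower in all. Among all genes with such counts these shares were 37.7% and 28.8%. The Ago2 ADH and Dicer KO effects share no library, and their difference was tested as an interaction. Series and mutated gene cannot be told apart in it. Only *Psmb5* was called among the 46 members (1 higher, 2.17%, background 1.29%, and 0 lower, background 2.45%). Its rise was larger in Ago2 ADH oocytes by 0.75 ± 0.14 on the log2 scale (adjusted p = 0.000977, edgeR). By DESeq2 also 0 were lower. At an unadjusted p under 0.05 there were 6 lower, again without the share of all genes. Among them was *Psme2*, whose difference of -0.49 ± 0.14 had an adjusted p of 0.0359 (edgeR). The low genes *Psmd13*, *Psmg2*, *Psme1* and *Psmb10* had larger differences that did not pass, among them 1.33 ± 0.51 for *Psmd13* and 1.56 ± 0.59 for *Psmg2* (adjusted p of 0.113 and 0.105, edgeR). *Psmb6* was called in both series, at 0.34 and 0.28, and the 95% interval of its difference was -0.16 to 0.17. *Psmd9* was called in Ago2 ADH (0.37) and missed the threshold in Dicer KO oocytes (0.28, adjusted p = 0.0115, edgeR).

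**Figure D4:**
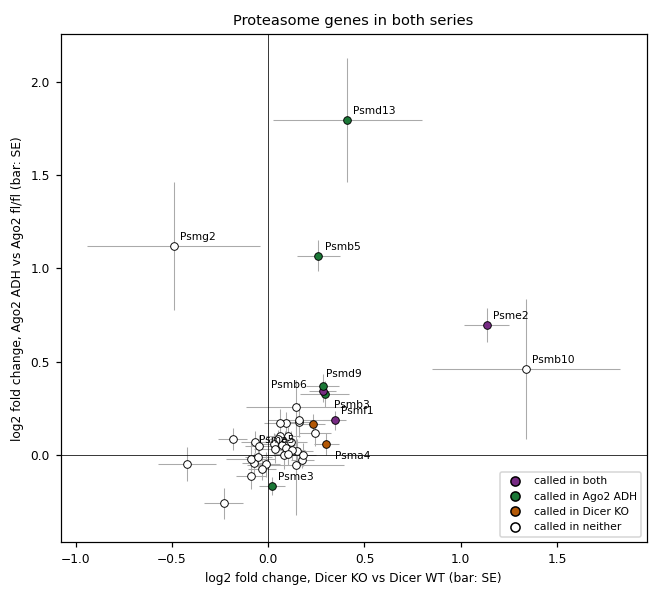
Log2 fold change with SE of 45 proteasome genes in Ago2 ADH against Ago2 fl/fl oocytes (vertical) and in Dicer KO against Dicer WT oocytes (horizontal), coloured by where they passed an FDR of 1%. Most genes cluster within 0.3 of the origin, *Psmb5* (1.07 and 0.26) lies high on the vertical axis and *Psme2* (0.70 and 1.13) far along both.

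The members called higher in all 3 mutants were *Psmb6* and *Psme2*. The *Ago2* comparisons share their control libraries, and the share of all genes called higher in all 3 is not given here. In total 13 of the 46 members tested were called in at least 1 of the 3 comparisons with controls, and 33 in none, whereas 51% of all genes tested were called in at least 1. Members that were not called are not shown to be unchanged, since modest changes can be missed with 2 or 3 libraries a group. The 5 members with more than 40% of their 36-base stretches in other transcripts (*Psmb5*, *Psme2*, *Psmb3*, *Psma5* and *Psma4*) were each called in at least 1. The result depends on the cut, which lies just below *Psma4* (41.8%). The next members, *Psmd2* (39.2%), *Psmb7* (31.4%) and *Psmc3ip* (27.9%), were called in none. The share called among all genes with such sequence is not given here. Among these 5, 3 were called in Ago2 ADH, 4 in Ago2 null and 3 in Dicer KO oocytes. Of the other members, 5 of 41 (12.2%), 7 of 41 (17.1%) and 2 of 40 (5.0%) were called, against 40.9%, 37.3% and 34.5% of all genes tested in either direction. The part of shared sequence in these calls was not tested. *Psmf1*, *Psme3*, *Psma1* and *Psmb4* share no such stretch.

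The transcription factors NFE2L1 and NFE2L2 bind antioxidant response elements and NFE2L1 raises proteasome subunit genes together when the proteasome is inhibited. Both of their transcripts fell. *Nfe2l1* was at 119, 121 and 116 CPM in Ago2 fl/fl, 73.1, 76.1 and 79.0 CPM in Ago2 ADH, 61.2 and 55.6 CPM in Ago2 null, 120, 127 and 130 CPM in Dicer WT and 82.3, 84.7 and 81.1 CPM in Dicer KO oocytes. No mutant library reached a control. The log2 fold changes were -0.59 ± 0.054 in Ago2 ADH, -0.99 ± 0.069 in Ago2 null and -0.61 ± 0.064 in Dicer KO oocytes (adjusted p of 3.22e-08, 4.27e-09 and 2.55e-07, edgeR). *Nfe2l2* fell from 48.5, 54.9 and 48.2 CPM to 15.8, 18.9 and 17.5 CPM in Dicer KO (-1.54 ± 0.096, adjusted p = 1.73e-10, edgeR). In Ago2 ADH oocytes it fell less, from 30.6, 30.5 and 34.4 CPM to 21.2, 20.4 and 18.5 CPM (-0.62 ± 0.084, adjusted p = 5.8e-06), and this difference between the series passed the test (0.87 ± 0.13, adjusted p = 9.17e-05, edgeR).

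Because of these factors, the promoters were searched for the core of the antioxidant response element, TGACNNNGC, on both strands of the 250 bases before the start that RefSeq (GRCm38.p6) gives. It was found in 5 of the 41 members with a promoter (12.2%) and in 11.5% of 27025 genes. The CCAAT box, searched as CCAAT on both strands, was found in 15 of 41 members (36.6%) and in 37.5% of all genes. Of the 5 members with the first motif, *Psmb5*, *Psmb6* and *Psmd9* were called higher in Ago2 ADH oocytes and *Psmc6* and *Psmd12* were not. The share called higher among all genes with the motif is not given here. A link between motif and change was not tested. The 100 bases before the start are shown for the 2 of these genes in which the match, in capitals, lies within them and outside the gene model, on chr14:54617996-54618095 (minus strand) and chr5:123228090-123228189 (plus strand). Both were called higher in Ago2 ADH and Ago2 null oocytes, and both windows are written on the strand of the gene.
Psmb5: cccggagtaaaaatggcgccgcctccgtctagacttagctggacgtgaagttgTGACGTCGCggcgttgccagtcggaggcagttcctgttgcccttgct
Psmd9: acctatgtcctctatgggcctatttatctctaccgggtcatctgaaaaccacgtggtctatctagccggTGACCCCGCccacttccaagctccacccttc
The matches begin 47 and 31 bases before the start, and those of *Psmc6* and *Psmd12* lie 227 and 247 bases before it. That of *Psmb6* begins 9 bases before the start used and lies inside the gene model. All 5 are matches of letters and no measure of binding.

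Of the 29 other genes of the pathway that were looked up (cap subunits and shuttles outside the symbol pattern, ubiquitin genes, assembly and transcription factors), 6 were higher and 7 lower in Ago2 ADH, 6 higher and 6 lower in Ago2 null, and 7 higher and 8 lower in Dicer KO oocytes. The backgrounds were 21% higher and 19.8% lower in Ago2 ADH, 18.6% and 18.7% in Ago2 null, and 16.9% and 17.6% in Dicer KO. Whether this list of genes differs from the backgrounds was not tested. Cap subunits were among those that rose. *Sem1*, a small subunit of the lid, was at 90.8, 81.4 and 79.0 CPM in Ago2 fl/fl and 99.5, 114 and 90.7 CPM in Ago2 ADH oocytes (0.32 ± 0.071, adjusted p = 0.000842, edgeR), where the lowest Ago2 ADH library was just below the highest control. In Dicer KO oocytes it rose from 30.1, 30.7 and 26.5 CPM to 39.1, 37.8 and 40.8 CPM without overlap (0.43 ± 0.089, adjusted p = 0.000591, edgeR). *Adrm1*, a ubiquitin receptor of the cap, rose in Ago2 ADH and Ago2 null oocytes (0.23 and 0.31, adjusted p of 0.00763 and 0.000585) and measured 0.07 in Dicer KO (adjusted p = 0.489, edgeR). *Pomp*, the maturation factor of the core, fell in Dicer KO oocytes, from 89.0, 97.8 and 106 CPM to 79.1, 81.8 and 81.4 CPM without overlap (-0.28 ± 0.073, adjusted p = 0.00398). In Ago2 ADH and Ago2 null oocytes its log2 fold changes were -0.16 and -0.11 (adjusted p of 0.0201 and 0.18, edgeR).

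Of the partners, *Ubqln2*, a shuttle that brings ubiquitinated proteins to the cap, fell most in Ago2 ADH oocytes, from 74.5, 67.7 and 64.6 CPM to 40.6, 44.4 and 44.6 CPM (-0.63 ± 0.067, adjusted p = 2.72e-07, edgeR). It also fell in Ago2 null and Dicer KO oocytes (-0.68 and -0.51). In the Ago2 null oocytes the largest rise was that of *Ufd1* (0.58), a cofactor of the segregase *Vcp*, and the largest fall that of *Nfe2l1*. In Dicer KO oocytes the largest fall was that of *Nfe2l2*. *Ufd1* rose in all 3 mutants (0.62, 0.58 and 0.54), and *Ube3c*, a ubiquitin ligase that acts at the proteasome, fell in all 3 (-0.40, -0.40 and -0.63).

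**Figure D5:**
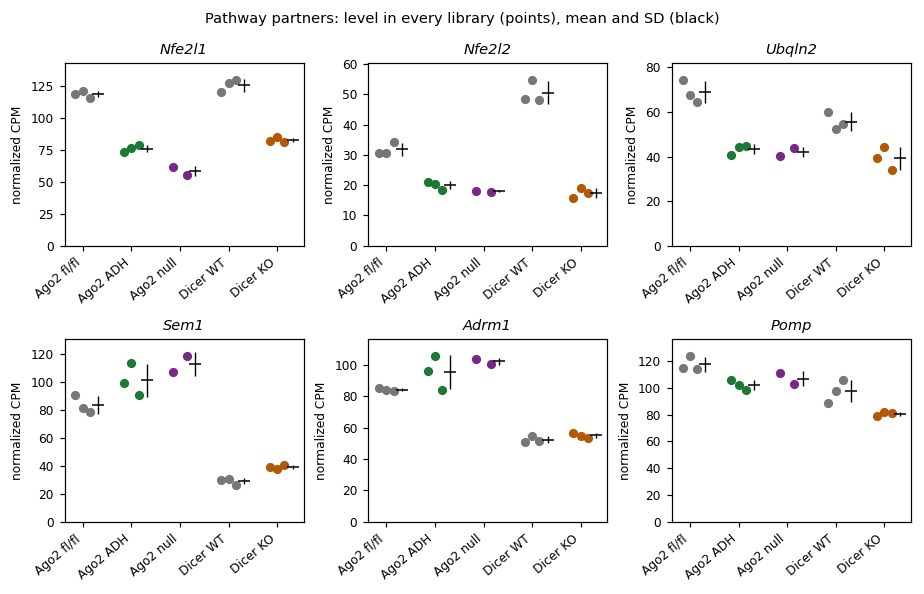
Normalized CPM of 6 pathway partners in each of the 14 libraries (coloured points), with the group mean and SD in black and axes from 0. *Nfe2l1*, *Nfe2l2* and *Ubqln2* are lower in every mutant library than in the controls of the same series, while *Sem1* is higher or at the upper end.

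Summed over the 14 constitutive core subunits, the level was 1760 to 1900 CPM in Ago2 fl/fl, 1840 to 1950 CPM in Ago2 ADH, 1970 to 2050 CPM in Ago2 null, 1340 to 1400 CPM in Dicer WT and 1480 to 1560 CPM in Dicer KO libraries. Ago2 ADH libraries overlapped with their controls, and Ago2 null and Dicer KO libraries did not. The 16 cap subunits summed to 1020 to 1050 CPM in Ago2 fl/fl, 984 to 1070 CPM in Ago2 ADH and 1040 to 1050 CPM in Ago2 null libraries, which overlapped. In the *Dicer* series they summed to 900 to 926 CPM in WT and 924 to 968 CPM in KO libraries, which overlapped.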

How the data were processed

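After whole-transcriptome amplification and paired-end sequencing, the authors aligned to mm10 with TopHat and counted per RefSeq transcript with htseq-count, without strand. The deposited values are raw counts, and reads with several alignments form a separate tally. Reads outside transcripts (5231190 to 9889966 per library) and that tally stayed out of library sizes and tests. Any reads tallied as ambiguous between transcripts also stayed out. The cDNA was amplified without molecular identifiers, so limits drawn from 3 counts reflect counting error alone. Symbols came from RefSeq (26077) and GENCODE (117), and 301 stayed unpaired. Each comparison was fitted on all transcripts of its libraries with edgeR 4.0.16 (R 4.3.3). The settings were filterByExpr with a minimum count of 10 and total of 15, TMM, quasi-likelihood test, Benjamini-Hochberg adjustment and an FDR of 1%. Tested on simulated data, the fit missed many changes of 1.5-fold. The SE is the absolute log2 fold change divided by the square root of F. Normalized CPM use TMM-scaled sizes over all 14 libraries. DESeq2 1.42.0 and the other alternatives appear in the closing section. Genes named in full were the 4 largest called changes each way with normalized counts averaging 100 or more in Ago2 ADH and Dicer KO, the 2 largest in Ago2 null, all called between Ago2 ADH and null, the 3 largest in the interaction, and 15 subunits and regulators listed by name, with *Pomp*, *Nfe2l1*, *Adrm1* and the largest partner changes, of which some are not reported here. The members and lists were chosen with earlier results of these data known. Shared stretches were counted as 36-base windows of GENCODE transcripts found in another gene.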

Additional observations from a re-analysis of the deposited data

Results flagged for a closer look

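The rise of *Psmb5* differed between the series by the interaction test. It was larger in Ago2 ADH than in Dicer KO oocytes by 0.75 on the log2 scale, with all 3 Ago2 ADH libraries above all 3 controls and all 3 Dicer KO libraries above all 3 Dicer WT libraries. *Psmb5* is also the member with the largest share of its sequence in other transcripts. Series and mutated gene cannot be told apart in the interaction test.

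The tally of reads with several alignments, which enters no comparison above, was higher in every mutant than in its controls. Relative to the counts on transcripts, its group mean in Ago2 ADH and in Ago2 null libraries was 2.82 times that in Ago2 fl/fl libraries, and in Dicer KO libraries it was 2.25 times that in Dicer WT libraries. Its part in the changes of members with near-identical copies was not tested.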

How the results depend on the processing

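At an FDR of 5% the members called rose to 12 higher and 2 lower in Ago2 ADH (26.8% and 26.1% of all genes), 14 higher and 2 lower in Ago2 null (24.8% and 24.5%), 10 higher and 2 lower in Dicer KO (22.8% and 23.4%), and 3 lower in the interaction (5.26%). DESeq2 and leaving out the filter on low counts each gave 2 lower in Ago2 ADH. All 5 groups in one fit gave 1 lower in Dicer KO. The replicate number as a block gave 0 lower in Ago2 ADH and 6 higher in Ago2 null (the control library without a partner left out), but same-numbered libraries did not deviate together (correlations of -0.0739 to 0.0447), so the numbers do not pair the samples. Leaving out 1 library at a time gave 6 to 7 higher and 0 to 2 lower in Ago2 ADH, 8 to 10 higher and 0 to 1 lower in Ago2 null, and 3 to 6 higher and 0 to 1 lower in Dicer KO. With 1 null library left, that library is assumed to vary like the others. For *Psmb5* the range over all alternatives was 0.99 to 1.13 in Ago2 ADH, 1.12 to 1.25 in Ago2 null and 0.69 to 0.83 in the interaction, always called. *Psme2* and *Psmd9* kept their calls in both *Ago2* comparisons under every alternative run, and *Psme2* also in Dicer KO. The cause of the lost calls was not tested. Tested members with a mean under 100 counts (*Psmd13*, *Psmg2*, *Psmb10*, *Psmb11* and *Psme1*) are limited by depth.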
